A study of Mus musculus with 3 samples.

Results

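The miR-23/27/24 clusters are a pair of miRNA clusters that arose from a duplication, and each encodes 1 member of the miR-23, miR-27 and miR-24 families. Their 6 hairpins, Mir23b, Mir27b and Mir24-1 on chromosome 13 and Mir23a, Mir27a and Mir24-2 on chromosome 8, were chosen by name and are 6 of the 1005 mouse hairpins listed by RefSeq. Small RNA was sequenced in 3 libraries of MIN6 cells, a mouse insulinoma line that is used as a model of the pancreatic beta cell. All libraries belong to 1 condition, labelled high glucose (25 mM), and are replicates 1, 2 and 3 of it, so no comparison between conditions was possible and every comparison is between members within a library. The libraries held 9269795, 10816006 and 10218743 mapped reads. In each of them the most abundant 5′-start lay in the hairpin of miR-375, a miRNA that is characteristic of beta cells, with 33.4%, 35.7% and 37.1% of mapped reads.

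A miRNA hairpin is cut by Drosha and Dicer into a duplex of a 5p and a 3p arm, and as a rule 1 arm is loaded into Argonaute while the other is degraded. Targets are recognised mainly through the seed, bases 2 to 8 from the 5′-end. A shift of the 5′-end therefore changes the seed, whereas bases added to the 3′-end, such as the uridines that terminal uridylyltransferases add, leave it as it is. The clusters are known for roles in lipid metabolism, angiogenesis and muscle, and in both of them the members are transcribed together.

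The sequences below, from RefSeq (GRCm38.p6) and written 5′ to 3′ with the seed in capitals, show which members can be told apart. The miR-27 paralogs share a seed, the miR-24-3p sequence is the same at both loci, and the 5p arms differ between the clusters. RefSeq lists 11 mature arms for the 6 genes.
miR-23a-3p: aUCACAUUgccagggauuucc
miR-27a-3p: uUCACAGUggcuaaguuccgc
miR-27b-3p: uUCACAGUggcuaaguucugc
miR-24-3p: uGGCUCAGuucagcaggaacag
miR-24-1-5p: gUGCCUACugagcugauaucagu
miR-24-2-5p: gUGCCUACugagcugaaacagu
miR-27a-5p: aGGGCUUAgcugcuugugagca
miR-27b-5p: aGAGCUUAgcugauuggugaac
The seeds of miR-23 (UCACAUU, the same in miR-23a-3p and miR-23b-3p) and of miR-27 (UCACAGU) have their first 5 bases in common, and the miR-24-3p seed (GGCUCAG) is unrelated in sequence. The miR-24-1-5p and miR-24-2-5p arms share a seed and differ in their 3′-halves, so that their reads could be assigned to 1 locus.

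On mm9, the build that the submitters' processing notes name, reads of the chromosome 13 cluster started on the plus strand at 63401837 for miR-23b-3p, at 63402068 for miR-27b-3p and at 63402559 for miR-24-3p. Those of the chromosome 8 cluster started, also on the plus strand, at 86732462 for miR-23a-3p, at 86732626 for miR-27a-3p and at 86732774 for miR-24-3p. In the GENCODE annotation of GRCm38, the chromosome 13 hairpins lie within the protein-coding gene 2010111I01Rik, in sense, and within Fancc, in antisense. Mir27b and Mir24-1 overlap annotated exons of 2010111I01Rik, and Mir23b does not. On chromosome 8, Mir24-2 overlaps an exon of the lincRNA Gm26532, and no other gene overlaps Mir23a or Mir27a. Mir24-1 and Mir24-2 each lie opposite another annotated miRNA, Mir3074-1 and Mir3074-2.

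The 6 hairpins together accounted for 3.49%, 3.23% and 3.23% of mapped reads, and nearly all of these reads came from 1 arm. miR-27b-3p held 95.2% ± 0.198 (SD, n = 3) of the reads of the 6 hairpins. Its level was 33127, 30759 and 30774 RPM (reads per 1000000 mapped reads) in replicates 1, 2 and 3, which gave it rank 4, 4 and 3 among all 5′-starts. Levels count all reads at the reference 5′-start, whatever their length, and no correction for length was made. The samples are bulk, so a level cannot be divided into the share of cells that hold a miRNA and the amount per cell. How efficiently different sequences were ligated and amplified was not tested.

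The other arm of the same hairpin, miR-27b-5p, had 60.2, 45.0 and 51.1 RPM. The 3p arm was thus 612 ± 66.9-fold (SD, n = 3) more abundant than the 5p arm of Mir27b, with ratios of 550, 683 and 602. The same comparison in Mir27a gave a ratio of 99.0 ± 26.1, with 28, 31 and 20 reads of miR-27a-5p behind it. This ratio counts all reads at the miR-27a-3p start, including reads shared with Mir27b, which raise it. Of 2346.25, 2608.5 and 2583.7 reads there, 1392.5, 1410.5 and 1388.5 carried the base by which Mir27a differs from Mir27b. In both miR-27 hairpins the 3p arm was the abundant one in every library.

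miR-23b-3p, which is processed from the hairpin next to Mir27b, had 650, 582 and 552 RPM. These values were 53.2 ± 2.42-fold (SD, n = 3) below those of miR-27b-3p. In the chromosome 8 cluster the step between the same neighbours was smaller, with 253, 241 and 253 RPM at the miR-27a-3p locus and 72.2, 67.0 and 67.3 RPM at the miR-23a-3p locus, a ratio of 3.62 ± 0.126. In both clusters the miR-27 member was the more abundant, and the ratios of the clusters did not overlap. Reads shared with the paralog count in the miR-27a-3p level, and with those reads left out the log2 ratio of miR-27a-3p over miR-23a-3p was 1.24 instead of 1.86.

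miR-24-3p had 218, 182 and 159 RPM at each of its loci. The authors divided a read equally among equally good loci, and since the miR-24-3p sequence is the same in both hairpins, every alignment had an equal value at both. The level of 437, 364 and 319 RPM summed over both loci can therefore not be divided between the clusters. Replicate 1 was the highest for this miRNA, and the SD of 59.5 RPM around the mean of 373 RPM was larger, in proportion, than that of the other abundant 3p arms.

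The clusters differed in the opposite direction at the 5p arm of the miR-24 hairpins, the only miR-24 arm that could be assigned to a locus. miR-24-2-5p, from chromosome 8, had 216, 239 and 211 reads (23.3, 22.1 and 20.6 RPM), whereas miR-24-1-5p, from chromosome 13, had 31, 24 and 18 reads (2.44 ± 0.815 RPM, SD, n = 3). The chromosome 8 arm was 6.97, 9.96 and 11.7 times as abundant at the reference start. With all starts within 5 nt, the log2 ratio of miR-24-1-5p over miR-24-2-5p was -2.67 instead of -3.22. miR-27b-3p and miR-23b-3p, in contrast, exceeded their chromosome 8 paralogs 127 ± 4.64-fold and 8.63 ± 0.406-fold. All arms except miR-24-3p summed to 32203 ± 1419 RPM for the chromosome 13 cluster and 343 ± 9.38 RPM for the chromosome 8 cluster. The chromosome 8 sum and both of these ratios include reads that could not be assigned to that locus. At the miR-27a-3p start, 139 ± 10.2 of 249 ± 6.82 RPM carried the base by which Mir27a differs from Mir27b. At the miR-23a-3p start, 58.7 ± 3.24 of 68.8 ± 2.93 RPM carried the base by which Mir23a differs from Mir23b.

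The least abundant arms were miR-23b-5p, with 8, 9 and 7.1 reads, and miR-23a-5p, with 2, 0 and 0 reads. A count of 0 allows up to 3 reads, or 0.277 RPM in replicate 2 and 0.294 RPM in replicate 3, so miR-23a-5p was not detectable there. From the highest to the lowest, the order was miR-27b-3p, miR-23b-3p, miR-24-3p (over both loci), miR-27a-3p, miR-23a-3p, miR-27b-5p, miR-24-2-5p, miR-27a-5p, miR-24-1-5p, miR-23b-5p and miR-23a-5p. Neighbours in this order did not overlap between libraries, except for miR-27a-5p (2.61 ± 0.575 RPM) and miR-24-1-5p, whose levels differed by less than their spread.

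**Figure D1:**
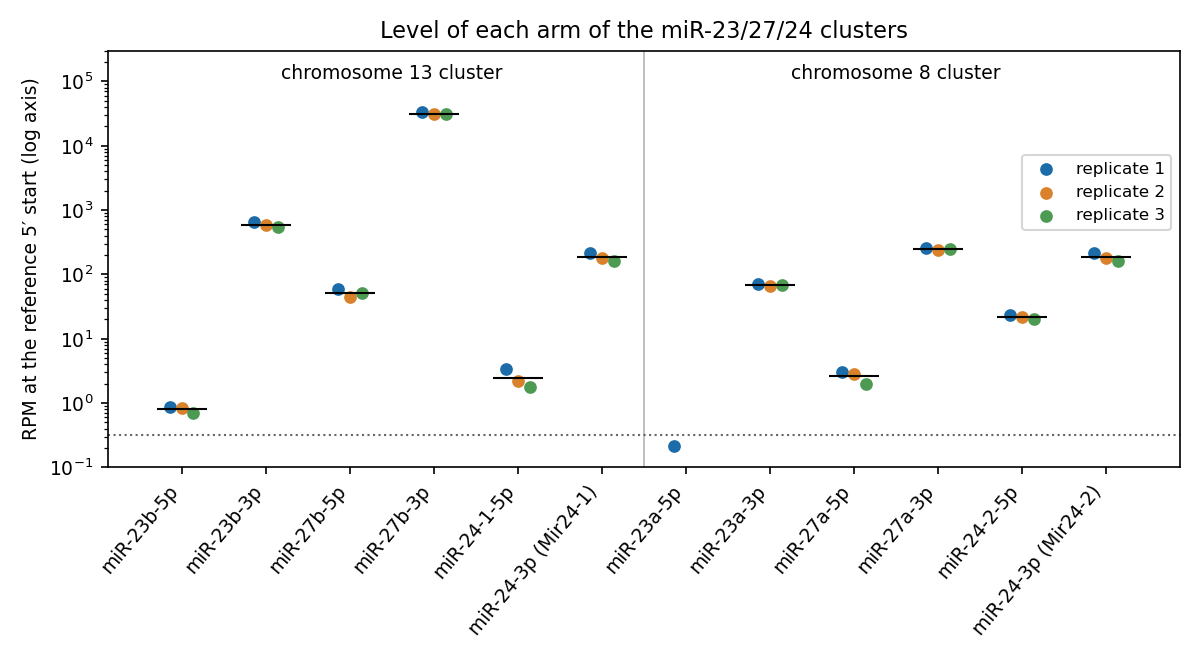
RPM at the reference 5′-start of each arm on a log axis, with 1 point per library and a bar at the mean; the dotted line marks 3 reads in the smallest library. miR-27b-3p stands at 31553 ± 1363 RPM, and the miR-24 5p arms are the pair in which the chromosome 8 member is the higher one. miR-23a-5p is drawn for replicate 1 only, since the others had 0 reads, and its mean lies below the axis.

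An exact two-sided sign-flip permutation test over the 3 libraries was made for 9 differences between members. For 3 libraries its smallest possible p is 0.25 (0.281 after Benjamini-Hochberg adjustment over the 9 tests), so no difference could pass a threshold. That smallest p was reached, with the same direction in 3 of 3 libraries, by miR-27b-3p over miR-27a-3p (log2 ratio 6.98 ± 0.05), miR-23b-3p over miR-23a-3p (3.11 ± 0.07), miR-24-1-5p over miR-24-2-5p (-3.22 ± 0.38), miR-27b-3p over miR-23b-3p (5.73 ± 0.07), miR-27a-3p over miR-23a-3p (1.86 ± 0.05) and miR-27b-3p over miR-27b-5p (9.25 ± 0.16). Each of these mean log2 ratios was at least several times its SD between libraries. The study's methods describe the libraries as biological replicates, without saying how the cultures were kept apart.

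Which reads belong to miR-27a-3p depended on 1 base. The paralogs are identical through base 18 and differ at base 19 (C19U from Mir27a to Mir27b), and next at base 22 (C22A), which lies past the reference 3′-end. Base 19 is in capitals here.
miR-27a-3p, base 19: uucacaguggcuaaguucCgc
miR-27b-3p, base 19: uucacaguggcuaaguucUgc
The miR-23 paralogs also part at base 19 (U19A from Mir23a to Mir23b), then at bases 23 and 24 (A23C and C24G).

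Of the reads at the miR-27a-3p start, only 59.4%, 54.1% and 53.7% carried the base of Mir27a at position 19. A further 25.8%, 30.8% and 30.2% ended before that base, 9.34% ± 0.493 carried the base of Mir27b and 6.03% ± 0.300 carried neither base. For 18-nt reads without a mismatch, 517, 668 and 668 reads were listed at each miR-27 locus, in equal numbers. Reads that end before base 19 made up 0.229% ± 0.0279 of the reads at the miR-27b-3p start, where they change little, compared with 28.9% ± 2.74 (SD, n = 3) at miR-27a-3p.

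Reads of 22 nt were shared in another way. A read with the Mir27b base at position 19 and a C at position 22 has 1 mismatch at either locus, and 139, 160 and 180.5 such reads were listed at both. Reads with the base of Mir27a alone gave 150, 130 and 136 RPM (139 ± 10.2), compared with 249 ± 6.82 RPM for all reads at the start. On these reads miR-27b-3p exceeded miR-27a-3p 227 ± 7.66-fold, compared with 127 ± 4.64-fold on all reads. This way of counting was added after the data had been seen.

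**Figure D2:**
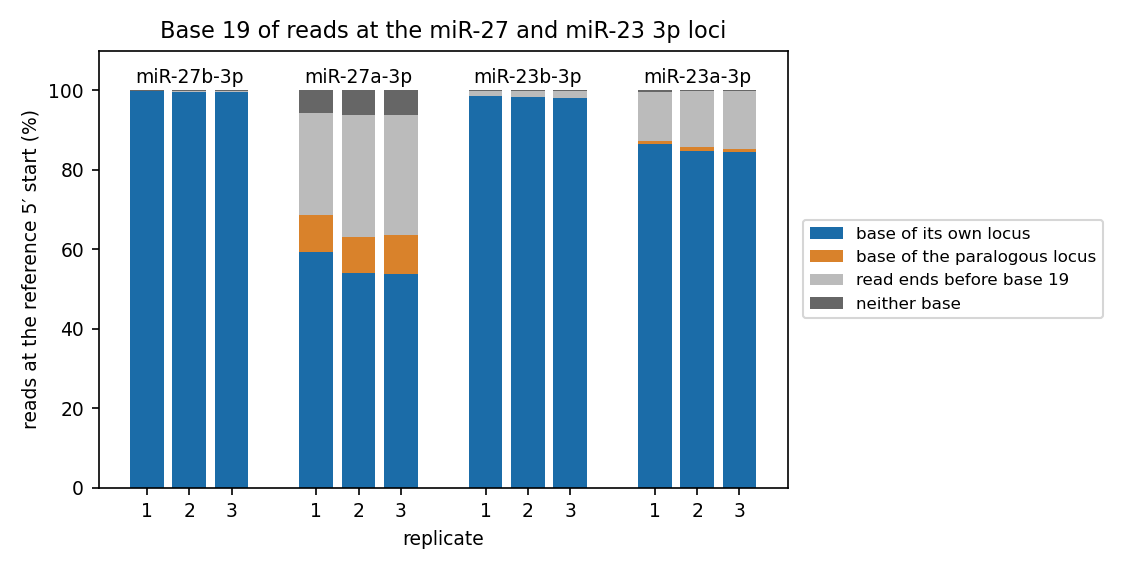
Share of the reads at the reference 5′-start of each 3p arm (%, stacked bars, 1 bar per library) that carry the base of their own locus at position 19, the base of the paralogous locus or neither, or that end before it. At miR-27a-3p the own base is present in 55.7% ± 3.15 of reads, compared with 99.7% ± 0.0314 at miR-27b-3p.

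The reads with the Mir27a base were compared with mismatches elsewhere in miR-27b-3p. They were 0.453%, 0.423% and 0.441% of the reads with either base at position 19. At the 6 other uridines of miR-27b-3p for which the share was computed, 0.00709% to 0.0345% of reads had a C. The share at position 19 thus lay above that range in each library.

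The miR-23 pair was less affected. Of the reads at the miR-23a-3p start, 86.4%, 84.7% and 84.4% carried its own base, and 18-nt exact reads common to both loci numbered 55.5, 69.5 and 66. On own-base reads miR-23b-3p exceeded miR-23a-3p 9.96 ± 0.386-fold, close to the 8.63 ± 0.406-fold of all reads. Own-base reads of miR-23a-3p were 9.13% ± 0.326 of those with either base, whereas A-to-U mismatches at 5 other positions of miR-23b-3p ranged from 0.0053% to 0.0763%.

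The 5′-ends were mostly those of the reference. Within 5 nt of the reference start, 0.543% ± 0.0135 (SD, n = 3) of miR-27b-3p reads and 0.517% ± 0.159 of miR-27a-3p reads were shifted. The difference between these shares was 0.0260 ± 0.149 percentage points (p = 0.75, exact two-sided sign-flip permutation test, 3 libraries; 0.75 after adjustment), and it was -0.0538 without replicate 1. On all reads the miR-27 paralogs thus differed by less than the spread between libraries. The miR-27a-3p share rested on few reads, with 2.5, 10.2 and 10 reads 1 base early and 3.42, 5.5 and 2.5 reads 1 base late. Of these, 57.3% and 52.6% were in alignments of whole-number value, and the rest were divided among loci, so the likeness of the paralogs is uncertain. The difference in shifted share was 0.122 ± 0.104 points with exact alignments only and 0.186 ± 0.102 points with alignments of whole-number value only. In each case miR-27b-3p was the higher in 3 of 3 libraries.

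A small share of miR-27b-3p was still many reads. miR-27b-3p-1, which starts 1 base upstream of the 5′-reference, had 1341.5, 1559.7 and 1393 reads, or 142 ± 4.71 RPM, while making up 0.447% ± 0.0168 of the reads within 5 nt. This level was above that of the whole miR-23a-3p arm (68.8 ± 2.93 RPM). It exposes a different seed, shown in capitals.
miR-27b-3p-1: gUUCACAGuggcuaaguucug

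miR-23b-3p+1 and miR-24-3p+1, which start 1 base downstream, had larger shares. miR-23b-3p+1 had 251.5, 256.5 and 234.5 reads, a share of 3.95% ± 0.0457 that varied little between libraries, and its seed is CACAUUG. miR-24-3p+1 (seed GCUCAGU) had 44, 61 and 48 reads at each locus and a share of 2.62% ± 0.462. Among the 5p arms, 5.23% ± 0.883 of miR-27b-5p reads started 1 base early. For miR-24-1-5p, 13.8% ± 6.30 of reads started 1 base early and 19.96% ± 5.99 started 1 base late, on only 43, 40 and 27 reads within 5 nt. By comparison, 2.33% ± 0.488 of reads of its chromosome 8 counterpart miR-24-2-5p started 1 base late.

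The lengths and 3′-ends differed between members. miR-27b-3p was mostly a 20-nt miRNA (61.6% ± 0.814 of reads), 1 base shorter than its reference, with 26.9% ± 0.707 at 21 nt. At the miR-27a-3p start, 38.4% ± 2.16 of reads were 20 nt and 28.3% ± 2.73 were 18 nt, the length at which the paralogs cannot be told apart. miR-23b-3p was most often 24 nt (45.0% ± 0.797), and its paralog miR-23a-3p 21 nt (29.4% ± 2.31) and 22 nt (21.5% ± 3.50). miR-24-3p was most often 23 nt (43.9% ± 0.737), 1 base longer than its reference. The 5p arms miR-27b-5p and miR-24-2-5p were mostly 22 nt (72.5% ± 3.36 and 75.6% ± 1.47).

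A part of these lengths came from 3′-bases that do not match the genome. A mismatching 3′-end was found in 48.3%, 49.8% and 48.0% of miR-23b-3p reads and in 49.7%, 48.2% and 49.0% of miR-24-3p reads. Such an end was at least 40% of reads in every library for 3.91% of all 5′-starts with at least 100 reads per library (89 of 2279), and for 5 of the 11 starts within the hairpins of the clusters that had as many reads. These were miR-23b-3p, miR-23b-3p+1, miR-27b-3p+1 and miR-24-3p at both its loci, which share their reads. miR-23b-3p+1 had the highest share of them, with 81.3%, 80.1% and 78.5% of 251.5, 256.5 and 234.5 reads, and miR-27b-3p+1 had 48.0%, 52.2% and 48.0% of 243.5, 240.5 and 226.25 reads. In miR-27b-3p-1 the share was 12.8% ± 2.00, near that of its reference. The median over all starts was 1.17%, 1.32% and 1.19% in replicates 1, 2 and 3. The other reference starts had lower shares, with 14.8% ± 0.799 at the miR-27a-3p start, 14.6% ± 0.796 for miR-23a-3p, 10.8% ± 0.327 for miR-27b-3p, 3.97% ± 0.366 for miR-27b-5p and 0.779% for miR-24-2-5p. In each 3p arm the last base was a U in most of these reads (47.5%, 45.9%, 13.5%, 13.3% and 10.2% of all reads of miR-23b-3p, miR-24-3p, miR-23a-3p, miR-27a-3p and miR-27b-3p). The most frequent such form of miR-24-3p carried 1 uridine, in capitals, after its reference sequence.
miR-24-3p with a 3′-uridine: uggcucaguucagcaggaacagU

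The shares depended on where the matching part ended. miR-23b-3p reads that matched the genome through base 23 were 52.4% ± 0.459 of its reads, and 84.6%, 86.0% and 84.4% of them had a mismatching end. Of those ending at base 22, 15.9% ± 2.14 did, and of those ending at base 21, 2.48% ± 0.0703. miR-23a-3p followed the same order, with 55.0% ± 8.01 at base 23, 16.3% ± 2.47 at base 22 and 2.05% ± 0.564 at base 21. Only 16.1% ± 2.76 of miR-23a-3p reads matched through base 23. The miR-23 paralogs thus had similar shares at bases 21 and 22 and differed at base 23, both in how many reads reached it and in how many of these carried a further base. A 3′-base that happens to match the genome cannot be seen as added, and the base after position 21 is an A at both miR-23 loci, so added adenines were not visible there. Position 23 is an A at Mir23a and a C at Mir23b. An A added after base 22 was therefore hidden at Mir23a alone, where it counts as a match through base 23.

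Over all reads, the share of mismatching ends was 34.2 ± 0.183 percentage points higher in miR-23b-3p than in miR-23a-3p, with 34.0, 34.4 and 34.1 points in the libraries. This difference and the following one also reached the smallest p of the exact sign-flip permutation test, 0.25 for 3 libraries (0.281 adjusted). miR-27b-3p and miR-27a-3p differed by -4.05 ± 0.490 points, with the lower share in miR-27b-3p.

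With reads that carry the own base at position 19, the latter difference was -10.1 points, and 20.9% ± 0.843 of miR-27a-3p reads had a mismatching end. At base 20, where most reads of either miRNA ended, 16.6% ± 0.775 of own-base miR-27a-3p reads and 3.88% ± 0.181 of own-base miR-27b-3p reads carried a mismatching end. At base 21 the shares were 46.1% ± 3.05 and 24.1% ± 0.580. The genome has the same bases at positions 20 and 21 of both loci, and at position 22 it has an A at Mir27b, where an added A would not be seen, and a C at Mir27a. An added U is visible at each of these positions. Reads of miR-27a-3p that ended at base 22 included the 22-nt reads shared with Mir27b and are not compared.

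miR-24-3p reads that matched through base 22, the reference end, were 66.9% ± 1.81 of its reads, and 67.7% ± 1.33 of these had a mismatching end. In most cases it ended in U. Of all reads that matched through base 22, 64.3% ± 1.41 had a mismatching end of U alone and 3.10% ± 0.211 one of A alone. Of the reads ending at base 21, 5.02% ± 1.10 had a mismatching end.

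**Figure D3:**
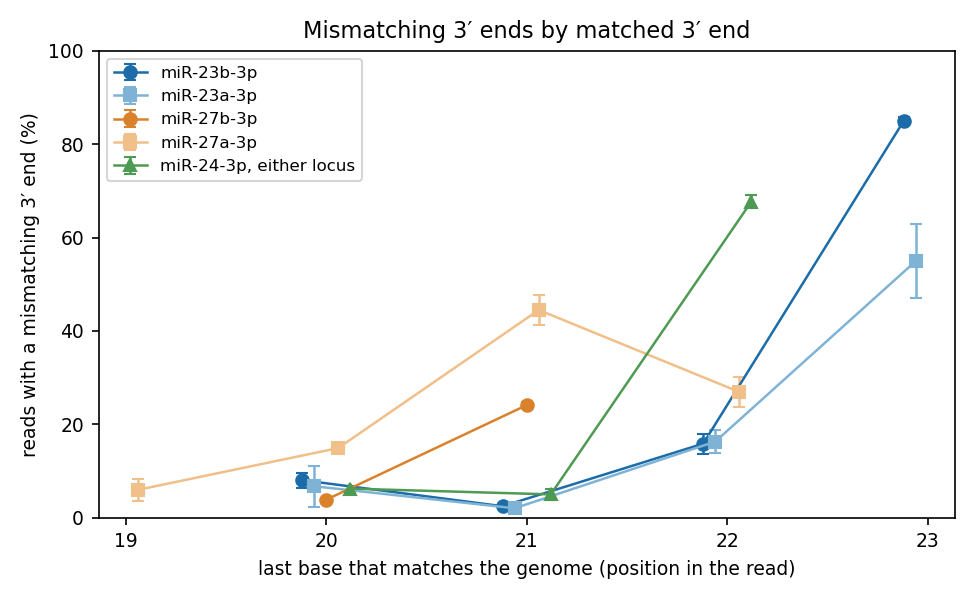
Share of reads with a mismatching 3′-end (%, mean, error bars SD, n = 3 libraries) by the last base that matches the genome, for the 3p arms and for ends that hold at least 5% of an arm's reads in every library. miR-23b-3p at base 23 (85.0% ± 0.831) and miR-24-3p at base 22 (67.7% ± 1.33) stand highest, and both fall below 6% at base 21.

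Within the reads, 1 type of mismatch was frequent. An A-to-C mismatch at position 6 (A6C, counted from the 5′-end) was carried by 11.2%, 11.4% and 11.7% of miR-27b-3p reads. At 3612 ± 110 RPM over all lengths and 3′-ends, the reads with this mismatch were more abundant than any other arm of the clusters. The mismatch falls within the seed and changes its letters to UCACCGU. The form with the reference length is shown.
miR-27b-3p with A6C: uucacCguggcuaaguucugc
This mismatch was also carried by 10.6% ± 0.456 of reads at the miR-27a-3p start, 7.79% ± 0.361 of miR-23b-3p reads and 6.46% ± 0.617 of miR-23a-3p reads.

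The same mismatch was found at this position of the read at other 5′-starts. The starts used for this were not restricted to miRNAs, and members of the clusters were not taken out. A position was used only if at least 500 reads covered it and every other base was seen there as a mismatch. Starts with no C at a position are therefore left out, which can raise the medians. For position 6, 54 starts with at least 1000 reads per library and an A there met this rule. Their median share of C was 8.82%, with quartiles of 7.70% and 10.5% and a highest value of 12.4%. The median was 12.8% at position 10, 8.75% at position 11, 18.4% at position 12 and 7.48% at position 20, whereas it was 0.0064% at position 4 and 0.0228% at position 13. The share therefore depended on the position in the read. Within miR-27b-3p, an A was read as C in 0.00516% of reads at position 4 and 0.0153% at position 13.

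At position 12, the miR-23 members lay within the quartiles and miR-24-3p above them. A12C was carried by 18.2% ± 0.598 of miR-23b-3p reads, 18.4% ± 1.40 of miR-23a-3p reads and 22.5% ± 0.597 of miR-24-3p reads, compared with the median of 18.4% and an upper quartile of 20.1% over 33 starts. A20C was carried by 10.7% ± 1.97 of miR-27b-5p reads, on 57, 43 and 67 reads, compared with an upper quartile of 7.78% and a highest value of 12.6% over 35 starts. The cause of these mismatches was not tested.

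**Figure D4:**
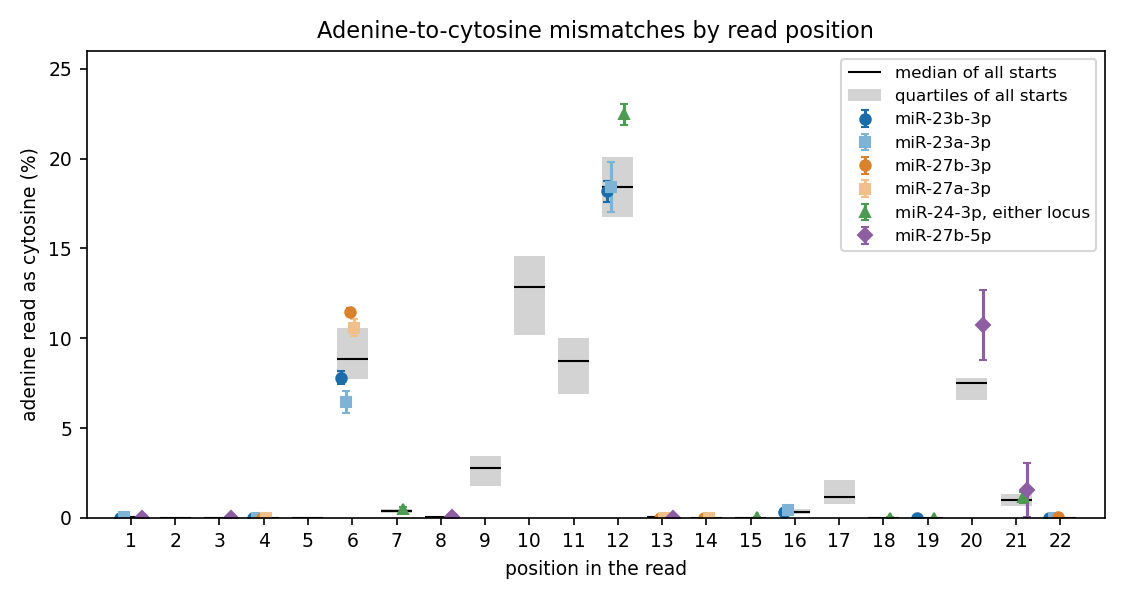
Share of reads in which an adenine of the genome is read as cytosine (%), by position in the read. Grey boxes span the quartiles and black lines mark the medians of 5′-starts with at least 1000 reads per library. Only starts at which every other base was seen as a mismatch at that position are included. Points show members of the clusters (mean, error bars SD, n = 3 libraries). The members are high at positions 6, 12 and 20, where the medians are high too, and reach at most 1.54% at their other adenines.

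Around the miR-24 hairpins, other small RNAs were more abundant than miR-24-1-5p. On the strand opposite Mir24-1, reads of the Mir3074-1 hairpin outside the window of miR-3074-5p numbered 117, 153 and 95 (12.6, 14.1 and 9.30 RPM), most of which started at 63402540 (82, 101 and 65 reads). This exceeded the 31, 24 and 18 reads of miR-24-1-5p in each library. The corresponding region of Mir3074-2, opposite Mir24-2, had 0, 0 and 2 reads. Reads of miR-3074-5p itself lie opposite miR-24-3p, whose sequence is the same at both loci, and shared reads were divided equally. There were 63, 60.5 and 57.5 reads opposite Mir24-1 and 63, 60.5 and 56.5 opposite Mir24-2, so the near-equal numbers do not measure either locus. Opposite Mir24-1, 49.7% of them were in alignments with whole-number values, but an even number of shared reads also gives a whole number. In the rest of that hairpin all reads were in whole-number alignments.

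Reads also began upstream of the hairpins and ended next to the 5p arm. Before miR-24-1-5p there were 60, 53 and 45 such reads, of which 94.9% (95% Wilson interval 90.3% to 97.4%, pooled over libraries) ended at the base directly before the start of miR-24-1-5p. Their level of 5.26 ± 1.08 RPM was above that of miR-24-1-5p (2.44 ± 0.815 RPM) in every library. Before miR-27b-5p, 82.6% of 17, 11 and 18 reads ended at the adjoining base, and before miR-27a-5p all of 7, 11 and 5 reads did. No molecular identifiers were used, so this interval describes the counting error alone. RNAs that adjoin the arms of a miRNA hairpin are known as miRNA-offset RNAs.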

How the data were processed

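Small RNA from 3 MIN6 libraries was analysed from deposited lists of alignments, 1 per library. Per the submitters' processing notes, cutadapt and Bowtie were used with mm9. The authors' values are expected counts (not normalized), in which a read with several equally good loci is divided among them, and trimmed reads of 14 to 41 nt are listed. Mismatched reads were sought only near exact alignments, so a locus without an exact read was not counted.

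Here the values were summed by 5′-start, length and 3′-end, without rounding, and expressed as RPM of all mapped reads. Alignments marked as exact end 1 base early, which was corrected. The hairpins were placed by searching the read starts for the spacing of the RefSeq arms. On chromosome 8 only 1 placement was found, and on chromosome 13 the better of 2 placements conflicted with 0 reads and the other with 4.26% of reads. The 5′-reference of miR-23b-3p was set where the first 18 bases of miR-23a-3p match the Mir23b hairpin. An arm is the reads at its reference start, a shifted read starts within 5 nt of it, and a mismatching 3′-end is an unbroken run of mismatches up to the last base. Named are all arms, starts with at least 1% of an arm in every library, and lengths and 3′-ends with at least 5%. Reads upstream of the hairpins and on the opposite strand are also named. miR-27b-3p-1 and miR-27b-3p+1 are below 1% of their arm and were named after their values were seen.

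Differences between members were tested with an exact two-sided sign-flip permutation test over the 3 libraries. No count model was fitted, since there is 1 condition. The parsing and the shares were tested on simulated data. Python 3.11.15, numpy 2.4.6, pandas 2.3.3, scipy 1.17.1 and matplotlib 3.10.9 were used. With 9269795 to 10816006 mapped reads per library, 0 reads allow up to 3 reads, or 0.277 to 0.324 RPM. Exact, undivided or 18 to 25 nt reads, other windows, another total and leaving out each library were tried as alternatives. The members, lists and tests were chosen with earlier results of these data known.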

Additional observations from a re-analysis of the deposited data

How the results depend on the processing

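Of 77 recomputed values of the main results, 74 kept their direction or stayed within their spread. The exception in direction was the difference in 5′-shifted share between miR-27b-3p and miR-27a-3p, which ranged from -0.0538 to 0.0936 percentage points when 1 library was left out and was negative without replicate 1, and which was 0.122 points with exact alignments only and 0.186 points with undivided ones, compared with 0.0260. The summed level of the 6 hairpins was 33145 RPM, 35430 RPM with exact alignments only as reads and total, and 51315 RPM when the most abundant 5′-start was taken out of the total, which raises every level. With exact alignments only, miR-23b-3p fell from 595 to 303 RPM and miR-24-3p from 187 to 99.1 RPM per locus, since reads with a mismatch at the 3′-end or within the read are then left out. The log2 ratio of miR-23b-3p over miR-23a-3p was then 2.37 instead of 3.11, and that of miR-27b-3p over miR-23b-3p 6.83 instead of 5.73. Undivided alignments, judged by whole numbers, still hold some shared reads and gave a log2 ratio of 7.15 for miR-27b-3p over miR-27a-3p, compared with 6.98. The number of 5′-starts with frequent mismatching 3′-ends was 89 to 92 when 1 library was left out. No paired analysis was possible because there is only 1 group of libraries, and the comparisons between members were made within each library. Arms with few reads (miR-24-1-5p, miR-27a-5p, miR-23b-5p and miR-23a-5p) are limited by depth, and their isomiR shares are imprecise.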
